A study of Homo sapiens with 6 samples.

Results

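Genes that drive the cell cycle and mitosis were followed in cells given DAC (decitabine), a nucleoside drug that is built into DNA and traps the enzymes that methylate it. The 46 genes were taken by symbol and not by a cut on their values, but earlier results of these data were known when they were chosen. All 46 were found among the 23617 symbols measured in MDA-MB-231 cells. The MDA-MB-231 line derives from a human breast tumor, and HMLER cells are human mammary cells that were transformed in culture. RNA was sequenced from 1 untreated and 1 DAC-treated MDA-MB-231 library, and from 2 untreated and 2 DAC-treated HMLER libraries. Treated cells received 10 µM DAC daily and were collected after 72 h. Each library pooled several independent RNA extractions, so the spread between extractions cannot be seen. One label of the untreated MDA-MB-231 library gives another line number than its title, and the title was followed.

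Values are FPKM, the number of fragments scaled by transcript length and by mapped fragments, and the transcripts of a gene were summed. With 1 MDA-MB-231 library per condition the differences have no replicate check and no test, so each is a comparison of these libraries. The bounds quoted are those that Cuffdiff, the authors' program, gives each transcript. The HMLER table has 1 merged value per condition and lists only transcripts that were higher after DAC: its 2009 transcripts of 1854 symbols all have DAC/untreated ratios above 2. Of a gene missing from it nothing is known here about its direction in HMLER. A lower level in a culture may come from fewer cycling cells or from less RNA per cell, and these cannot be told apart.

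Of the genes that mark MDA-MB-231, VIM was at 3066 FPKM untreated and 1134 after DAC, CD44 at 212.3 and 138.7, and KRT18 at 173.5 and 164.1. CDH1, ESR1 and PGR stayed under 1 FPKM in both libraries, and EPCAM was at 7.90 and 9.78. All 4 markers of other cell types were higher after DAC. PTPRC (blood) and PECAM1 (endothelium) reached at most 0.156 FPKM, PDGFRB went from 0.217 to 1.44 and COL1A1, a fibroblast collagen, from 0.853 to 15.6 FPKM. Their part in the results below was not tested.

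A dividing cell is moved from phase to phase by cyclins, which bind and switch on cyclin-dependent kinases. D and E cyclins act in G1 and at the entry into S phase, where E2F factors released from the retinoblastoma protein switch on genes of DNA synthesis. A and B cyclins with CDK1 drive mitosis, in which Polo and Aurora kinases build the spindle, the checkpoint kinases hold back anaphase until every kinetochore is attached, and the anaphase-promoting complex (APC/C) then destroys securin and cyclin B. The RNAs of the mitotic genes peak in G2 and M.

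Both MDA-MB-231 libraries held high levels of these genes. Before treatment their median was 69.8 FPKM, against 12.5 FPKM over the 12525 symbols that reached 1 FPKM in at least 1 library. Of the 46 genes, 44 lay above that median and 19 lay above 88.6 FPKM, the 90th percentile. CKS2 was highest at 362.8 FPKM, followed by UBE2C at 357.0, PTTG1 at 252.6 and CCNB1 at 227.3 FPKM, and the bounds of the largest transcripts of these neighbours overlapped. E2F2 was lowest at 2.64 FPKM. After DAC the median of the 46 genes was 54.8 FPKM, against 11.8 FPKM over the same symbols.

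After DAC 38 of the 46 genes were lower and 8 were higher. Over all symbols 56.9% were lower. The median log2 change of the 46 genes, with 1 FPKM added to each value, was -0.48, ranging from -1.37 (PLK1) to 0.61 (E2F2), and that of all symbols was -0.08. Genes of a high level were lower more often in general: among the 6965 symbols with a mean of at least 10 FPKM, which hold 45 of the 46 genes, 68.1% were lower and the median log2 change was -0.18.

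More than 2-fold lower were 3 of the 46 genes, PLK1, BUB1 and CENPE, where 4.82% of all symbols were called so. None of the 46 was more than 2-fold higher, against 10.8% of all symbols. With a threshold of 1.5-fold, 17 of the 46 genes were lower, against 15.5% of all symbols, and 16.4% of those with a mean of at least 10 FPKM. Only E2F2 of the 46 genes was more than 1.5-fold higher, against 17% of all symbols and 6.12% of those with a mean of at least 10 FPKM, a level that E2F2 did not reach. After division by the median ratio of the symbols (0.912) CDC25A and E2F2 were past 1.5-fold higher, against 20.8% of all symbols, and after division by that of their length class E2F1 was as well, against 22.3%. The Cuffdiff bounds of both libraries overlapped for the largest transcript of all 46 genes and for each of their 92 transcripts, while for 1.44% of all symbols they did not overlap. For 3 genes, PLK1, BUB1 and CENPE, each library's value lay outside the bounds of the other library. The share of all symbols that meet this looser rule was not counted, so the 3 have no baseline.

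**Figure D1:**
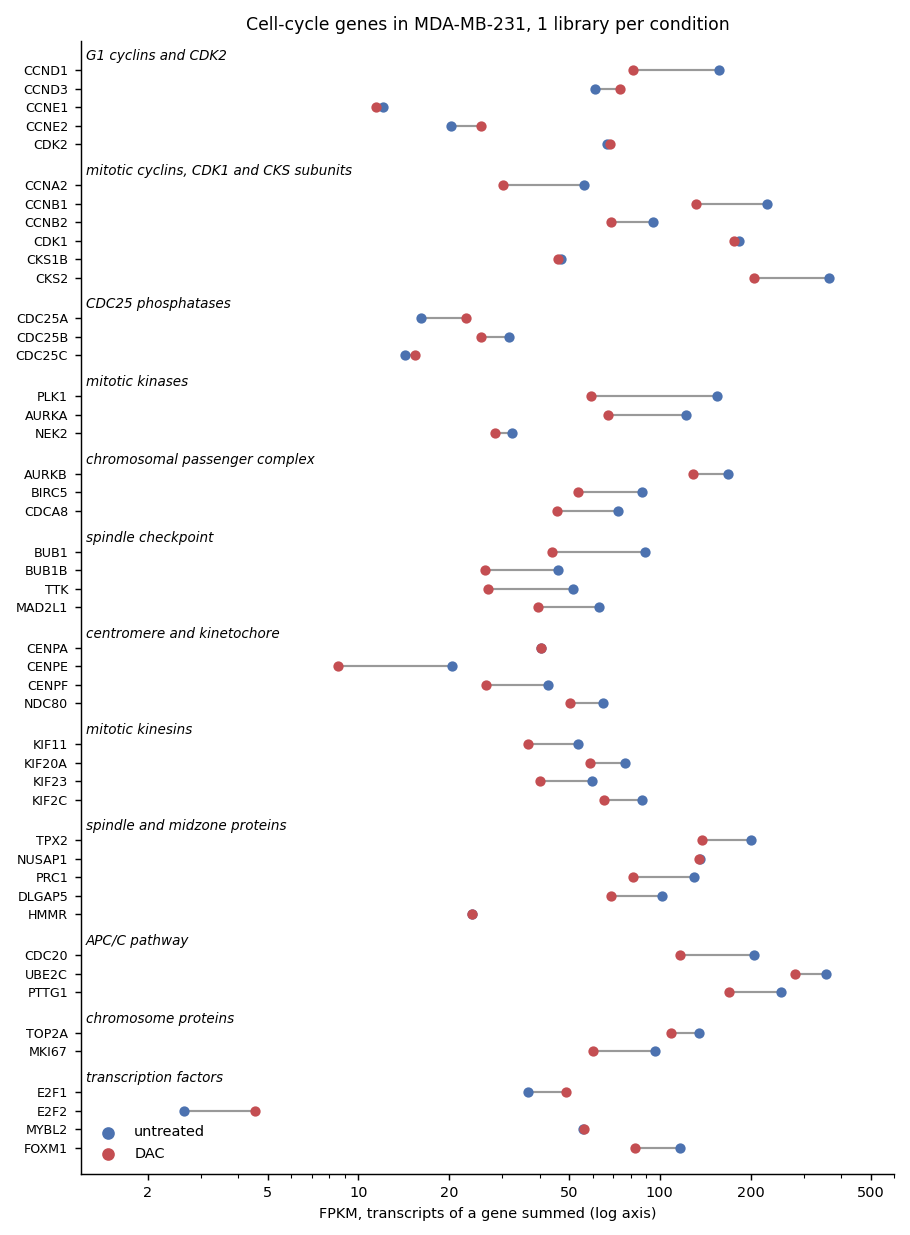
FPKM of the 46 genes in the untreated (blue) and the DAC-treated (red) MDA-MB-231 library, with transcripts summed, on a log axis and grouped by role. The red point lies left of the blue point for 38 genes, from 154.7 to 59.2 FPKM for PLK1, and right of it for 8, from 2.64 to 4.56 FPKM for E2F2.

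PLK1, the Polo kinase that matures centrosomes and triggers entry into mitosis, had the lowest ratio (hg19, chromosome 16, 23688977 to 23701688, plus strand). It was at 154.7 FPKM (bounds 80.3 to 229.1) untreated and at 59.2 FPKM (bounds 32.4 to 85.9) after DAC, a ratio of 0.382. The untreated value lies above the treated bounds, and the treated value lies below the untreated ones, although the bounds meet between 80.3 and 85.9 FPKM. CENPE, the kinesin that carries chromosomes to the spindle equator (chromosome 4, 104026506 to 104119602, minus strand), was at 20.4 FPKM (bounds 11.2 to 29.7) and 8.57 FPKM (bounds 4.61 to 12.5), a ratio of 0.420. BUB1, a checkpoint kinase of the kinetochore (chromosome 2, 111395105 to 111435640, minus strand), was at 89.4 FPKM (bounds 46.7 to 132.1) and 43.95 FPKM (bounds 24.1 to 63.8), a ratio of 0.492.

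The lowest FPKM values come in steps of 1 read, and from the step the number of reads behind a value was inferred. For the 24 genes with 1 annotated transcript, 561 to 31884 reads were inferred per library. PLK1 had 12942 reads untreated and 4919 after DAC, which gives its ratio an exact binomial 95% interval of 0.370 to 0.395. For CENPE (7328 and 3057 reads) it was 0.402 to 0.438, and for BUB1 (12566 and 6141 reads) 0.477 to 0.507, which reaches past a ratio of 0.5. These intervals cover counting error only and say nothing of the spread between cultures, which the design does not measure.

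Promoters of mitotic genes are known to carry the cell cycle genes homology region (CHR), often with CCAAT boxes upstream, through which the DREAM and MuvB complexes act, while G1/S genes more often carry E2F sites. RefSeq windows (GRCh38.p14) from 250 bases before to 50 bases after the first listed start were held for 37 of the 46 genes. None was held for AURKA, BIRC5, CCND1, CCNE2, CDK2, FOXM1, TPX2, TTK and UBE2C. Of these, CCND1, AURKA, BIRC5 and TTK were more than 1.5-fold lower after DAC in MDA-MB-231. The windows below are those of the 3 genes past 2-fold and of E2F1, which moved the other way, with matches to the 3 motifs in capitals. PLK1 lies at chr16:23678639-23678938 (plus strand), BUB1 at chr2:110678014-110678313 (minus), CENPE at chr4:103198294-103198593 (minus) and E2F1 at chr20:33686336-33686635 (minus).
PLK1: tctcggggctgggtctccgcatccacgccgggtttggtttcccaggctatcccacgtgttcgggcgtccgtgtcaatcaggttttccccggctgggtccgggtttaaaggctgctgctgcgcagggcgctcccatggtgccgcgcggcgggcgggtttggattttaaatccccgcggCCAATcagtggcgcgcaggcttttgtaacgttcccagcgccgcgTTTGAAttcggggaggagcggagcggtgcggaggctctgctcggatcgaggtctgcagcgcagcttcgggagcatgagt
BUB1: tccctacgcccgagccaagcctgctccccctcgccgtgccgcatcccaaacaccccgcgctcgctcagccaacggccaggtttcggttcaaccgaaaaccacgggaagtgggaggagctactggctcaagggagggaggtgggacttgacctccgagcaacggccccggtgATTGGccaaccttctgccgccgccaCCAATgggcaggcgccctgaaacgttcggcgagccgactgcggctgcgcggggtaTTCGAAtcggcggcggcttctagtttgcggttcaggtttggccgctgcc
CENPE: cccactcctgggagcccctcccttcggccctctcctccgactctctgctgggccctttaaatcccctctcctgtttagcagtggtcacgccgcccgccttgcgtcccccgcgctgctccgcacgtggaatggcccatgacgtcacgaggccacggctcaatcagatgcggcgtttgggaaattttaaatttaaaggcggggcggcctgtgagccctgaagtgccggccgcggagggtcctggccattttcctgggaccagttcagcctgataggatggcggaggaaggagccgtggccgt
E2F1: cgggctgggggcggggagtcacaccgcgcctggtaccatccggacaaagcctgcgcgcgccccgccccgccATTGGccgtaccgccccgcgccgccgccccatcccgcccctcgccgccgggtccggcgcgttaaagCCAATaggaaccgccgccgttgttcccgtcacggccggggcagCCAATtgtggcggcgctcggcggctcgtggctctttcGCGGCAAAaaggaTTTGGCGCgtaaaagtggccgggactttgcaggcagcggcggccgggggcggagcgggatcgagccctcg

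In PLK1 the CHR begins 29 bases before the start, and its CCAAT box 73 bases before. BUB1 has a CHR match 1 base after the start and 2 CCAAT boxes. E2F1 has 2 E2F matches, at 33 and 20 bases before the start, and 3 CCAAT boxes. CENPE has no match to any of the 3 motifs, as spelled below, in its window.

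A CHR (TTTGAA or TTCGAA, either strand) was found in 21 of the 37 windows, or 56.8%, against 16.6% of the 27305 windows of all genes and 10.8% of those of 5165 symbols with a mean of at least 10 FPKM in MDA-MB-231. It started no more than 60 bases before the start, or after it, in 18 of the 21, and in 32.8% of all windows with a CHR, a distance chosen after the matches were seen. A CCAAT box was found in 27 of the 37 windows (73.0%), in 35.7% of all windows and in 38.1% of those of the 5165 symbols. Both motifs together were found in 19 windows (51.4%), in 6.58% of all and in 5.09% of those of the 5165 symbols. E2F sites, spelled TTTCCCGC, TTTCGCGC, TTTGCCGC or TTTGGCGC, were found in 6 windows (16.2%), against 3.33% of all and 6.25% of those of the 5165 symbols. All were searched on both strands, and matches of different motifs were allowed to overlap. Other spellings of the CHR were not searched, so a window counted as without a CHR may hold another form of it.

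In MDA-MB-231 the log2 change had a median of -0.56 for the 21 genes with a CHR match and -0.24 for the 16 without. Of the former 10 were more than 1.5-fold lower, and of the latter 3. These 3, CCNA2, CCNB1 and CENPE, lack the spellings searched, and whether they hold another form of the CHR was not tested. The 16 without a CHR hold all the windowed G1, CDC25 and transcription factor genes: CCND3, CCNE1, CDC25A, CDC25B, CDC25C, E2F1, E2F2 and MYBL2. The others of the 16 were all lower, with log2 changes from -1.16 (CENPE) to -0.18 (NEK2). The CHR split thus overlaps the split by role given below, and which of them the difference follows was not tested. Among the 5165 symbols the median was -0.25 with and -0.18 without a CHR, and 20.5% and 14.6% were more than 1.5-fold lower. With a CCAAT box the 27 genes had a median of -0.56 and 11 past 1.5-fold, and the 10 without it a median of -0.19 and 2 past 1.5-fold. These 10 include CCND3, CCNE1, CDC25B, CDC25C, E2F2 and MYBL2 of the same roles. Among the 5165 symbols the order was the other way, with medians of -0.17 with and -0.19 without a CCAAT box, and 14.6% and 15.6% past 1.5-fold. The 6 genes with an E2F site (CDK1, CDC25A, CENPA, NUSAP1, E2F1 and E2F2) had a median log2 change of 0.20, and none was more than 1.5-fold lower. Among the 5165 symbols the median was -0.18 both with and without an E2F site, and 11.8% and 15.4% were more than 1.5-fold lower. A CpG observed/expected ratio above 0.6 was found for 35 of the 37 windows, against 48.9% of all windows and 89.6% of those of the 5165 symbols. These matches are a description of letters, and methylation of the promoters was not measured in these tables.

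Among the G1 regulators, CCND1 (cyclin D1, the growth-factor-induced partner of CDK4 and CDK6; hg19, chromosome 11, 69455924 to 69469242, plus strand) went from 156.8 FPKM (bounds 68.3 to 245.3) to 81.5 FPKM (bounds 41.4 to 121.6), a ratio of 0.520. It was the only member of its group past 1.5-fold. CCND3 was at 61.1 and 73.6 FPKM, and the E cyclins, which activate CDK2 at the entry into S phase, were at 12.1 and 11.5 FPKM (CCNE1) and at 20.3 and 25.6 FPKM (CCNE2). CDK2 itself was at 66.8 and 68.5 FPKM. The group of 5 genes had 2 lower and 3 higher values, with a median log2 change of 0.04.

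The transcription factors went apart. E2F1 (chromosome 20, 32263283 to 32274191, minus strand) was at 36.6 FPKM (bounds 20.2 to 53.0) untreated and 48.9 FPKM (bounds 26.8 to 71.0) after DAC, a ratio of 1.34, and E2F2 (chromosome 1, 23832930 to 23857725, minus strand) at 2.64 (bounds 0.782 to 4.49) and 4.56 FPKM (bounds 1.86 to 7.25), a ratio of 1.73. E2F2 had 561 and 964 reads, which gives an interval of 1.56 to 1.92 from counting error. MYBL2, which joins MuvB to activate late cell cycle genes, was at 55.6 and 56.0 FPKM. FOXM1, the forkhead activator of G2/M genes, was at 116.7 and 82.8 FPKM, a ratio of 0.709 (chromosome 12, 2966846 to 2986340, minus strand). Its largest transcript had bounds of 28.5 to 139.6 and 19.0 to 93.6 FPKM. The CDC25 phosphatases, which remove inhibitory phosphates from the kinases, also differed: CDC25A, which acts from the entry into S phase, had a ratio of 1.41 (16.1 and 22.8 FPKM; chromosome 3, 48198636 to 48229907, minus strand). The bounds of its largest transcript were 8.43 to 23.8 and 10.4 to 29.7 FPKM. CDC25B (chromosome 20, 3767419 to 3786768, plus strand) had a ratio of 0.805 (31.7 and 25.5 FPKM), with bounds of 15.7 to 43.2 and 11.8 to 33.5 FPKM for its largest transcript, and CDC25C a ratio of 1.07 (14.3 and 15.4 FPKM).

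The 34 genes of the other 9 roles were all lower in the DAC library, with a median ratio of 0.671 and 16 past 1.5-fold. Of all symbols 56.9% were lower and 15.5% more than 1.5-fold lower. Of those with a mean of at least 10 FPKM these were 68.1% and 16.4%. Of the 12 genes of the G1, CDC25 and transcription factor groups 4 were lower and 8 higher, with a median ratio of 1.05. These groups were joined after their values were seen, which shapes both counts, and the difference between them was not tested. They do not follow the phase alone, since MYBL2 and FOXM1, activators of late cell cycle genes, are among the 12. For 5 of the 34 genes (CDK1, CKS1B, CENPA, NUSAP1 and HMMR) the values were nearly alike, with ratios from 0.966 to 0.996. Dividing by 0.912, the median ratio of symbols at 1 FPKM or more in both libraries, put these 5 above 1, leaving 29 of 34 lower.

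**Figure D2:**
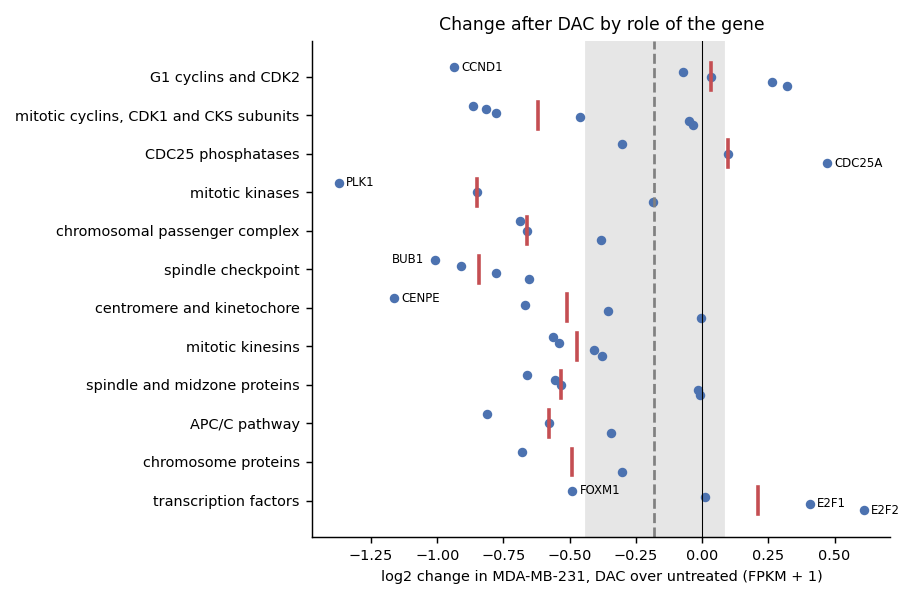
Log2 change after DAC of each gene in MDA-MB-231 (blue points), with 1 FPKM added to each value, by role. Red bars are group medians, the dashed line is the median (-0.18) and the grey band the middle 50% of symbols with a mean of at least 10 FPKM. Group medians of the G1, CDC25 and transcription factor genes are above 0 and those of the other 9 are at -0.47 or lower.

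In the mitotic cyclin group, CCNB1 (cyclin B1, which activates CDK1 for mitosis; chromosome 5, 68462962 to 68474072, plus strand) went from 227.3 FPKM (bounds 111.1 to 343.4) to 132.1 FPKM (bounds 69.3 to 194.9), a ratio of 0.581. CCNA2, the partner of CDK2 and CDK1 in S and G2 phase (chromosome 4, 122737599 to 122745038, minus strand), changed most in its group, from 55.9 FPKM (bounds 27.9 to 83.9) to 30.2 FPKM (bounds 14.4 to 46.1), a ratio of 0.541. CCNB2 had a ratio of 0.723 (94.9 and 68.6 FPKM). The CKS subunits, small proteins that dock substrates to the kinases, were unlike each other: CKS2 (chromosome 9, 91926110 to 91931618, plus strand) went from 362.8 (bounds 200.4 to 525.3) to 205.7 FPKM (bounds 112.1 to 299.2), while CKS1B was at 47.0 and 45.9 FPKM. CDK1 was at 182.8 and 176.5 FPKM, a ratio of 0.966. Of the partners of the kinase, 3 (CCNA2, CCNB1 and CKS2) were more than 1.5-fold lower.

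All 4 spindle checkpoint genes were more than 1.5-fold lower, with a median ratio of 0.549. Besides BUB1, these were TTK, the kinase that recruits the checkpoint (51.5 and 26.9 FPKM, ratio 0.524), BUB1B (45.8 and 26.3 FPKM, ratio 0.574) and MAD2L1 (62.8 and 39.6 FPKM, ratio 0.630), both parts of the inhibitor of CDC20. CDC20, the APC/C activator that they restrain (chromosome 1, 43824652 to 43828874, plus strand), went from 206.0 FPKM (bounds 107.4 to 304.6) to 116.8 FPKM (bounds 63.9 to 169.7), a ratio of 0.567. UBE2C, the ubiquitin-conjugating enzyme of the APC/C, had a ratio of 0.787 (357.0 and 280.8 FPKM; chromosome 20, 44441215 to 44445596, plus strand). The bounds of its largest transcript were 166.1 to 487.7 and 132.8 to 374.8 FPKM. PTTG1 (securin) had a ratio of 0.669 (252.6 and 169.1 FPKM), and it has near-identical copies elsewhere in the genome with which reads may be shared.

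Of the Aurora kinases, AURKA, which acts at the centrosome, had a ratio of 0.552 (121.9 and 67.2 FPKM). AURKB, the kinase of the chromosomal passenger complex, had a ratio of 0.766 (168.5 and 129.1 FPKM), above its partners BIRC5 (survivin, 87.0 and 53.6 FPKM, ratio 0.616) and CDCA8 (borealin, 72.8 and 45.7 FPKM, ratio 0.628). For the largest AURKB transcript (chromosome 17, 8108051 to 8113918, minus strand) the bounds were 66.6 to 202.0 and 53.3 to 158.0 FPKM. For that of BIRC5 (chromosome 17, 76210267 to 76221717, plus strand) they were 36.6 to 110.8 and 22.6 to 66.7 FPKM. NEK2, a centrosome kinase, was at 32.4 and 28.4 FPKM. At the centromere, CENPF had a ratio of 0.621 (42.6 and 26.5 FPKM), NDC80, the microtubule anchor, of 0.779 (64.6 and 50.3 FPKM; chromosome 18, 2571556 to 2616634, plus strand; bounds 35.4 to 93.8 and 27.8 to 72.9 FPKM), and CENPA, the centromeric histone, of 0.996 (40.4 and 40.2 FPKM).

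The 4 mitotic kinesins lay close together, from 0.672 (KIF23, 59.7 and 40.1 FPKM) over KIF11 (0.682, 53.7 and 36.6 FPKM) and KIF2C (0.751, 87.2 and 65.5 FPKM) to 0.767 (KIF20A, 76.4 and 58.6 FPKM), and none passed 1.5-fold. The bounds of KIF2C (chromosome 1, 45205490 to 45233439, plus strand) were 46.9 to 127.4 and 35.7 to 95.2 FPKM, and those of the largest KIF23 transcript (chromosome 15, 69706585 to 69740766, plus strand) 12.7 to 54.3 and 6.68 to 32.7 FPKM. Among spindle and midzone proteins, TPX2, the activator of Aurora A, was at 200.02 and 138.03 FPKM (ratio 0.690), PRC1, which bundles midzone microtubules, at 129.7 and 81.7 FPKM (ratio 0.630), and DLGAP5 at 101.4 and 68.6 FPKM (ratio 0.677). The bounds of TPX2 (chromosome 20, 30327074 to 30389608, plus strand) were 86.8 to 313.2 and 66.04 to 210.01 FPKM, and those of the largest PRC1 transcript (chromosome 15, 91509270 to 91538859, minus strand) 30.1 to 131.1 and 20.97 to 80.1 FPKM. NUSAP1 was at 136.0 and 134.5 FPKM and HMMR at 23.9 and 23.8 FPKM. MKI67, the proliferation marker Ki-67, had a ratio of 0.620 (96.5 and 59.8 FPKM; chromosome 10, 129894923 to 129924687, minus strand). The bounds of its largest transcript, 5.01 to 103.8 and 9.35 to 63.2 FPKM, were wide. TOP2A, the topoisomerase that untangles sister chromatids (chromosome 17, 38544777 to 38574148, minus strand), was at 134.7 FPKM (bounds 55.4 to 213.9) and 109.1 FPKM (bounds 49.2 to 169.1), a ratio of 0.810. Both are read as markers of dividing cells, and in these libraries MKI67 was past 1.5-fold and TOP2A was not. The call on MKI67 rests on the sum of its transcripts, since its largest had a ratio of 0.6673. After division by 0.912 or by the length class median MKI67 was not past 1.5-fold either.

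Several transcripts were annotated for 22 of the genes. Of their 59 transcripts at 1 FPKM or more in a library, 43 were lower and 16 higher after DAC, and 10 genes had transcripts in both directions. The same shares over all genes with several transcripts were not counted, so these counts have no baseline. For AURKA the estimate moved between 2 transcripts whose lengths differ by 14 bases. NM_198434 was at 0.00358 FPKM (bounds 0 to 0.309) untreated and 14.1 FPKM (bounds 0.264 to 27.8) after DAC, and NM_198436 was at 19.2 (bounds 0 to 41.5) and 0.00172 FPKM (bounds 0 to 0.156). Their sum was 19.2 and 14.1 FPKM, and the other AURKA transcripts summed to 102.7 and 53.2 FPKM. For TTK, NM_001166691 went from 5.59 to 0.275 FPKM beside the main transcript at 45.9 and 26.7 FPKM. For CDC25A, NM_201567 was listed at 0 untreated and was at 2.67 FPKM (bounds 0 to 6.26) after DAC, beside the main transcript at 16.1 and 20.1 FPKM.

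**Figure D3:**
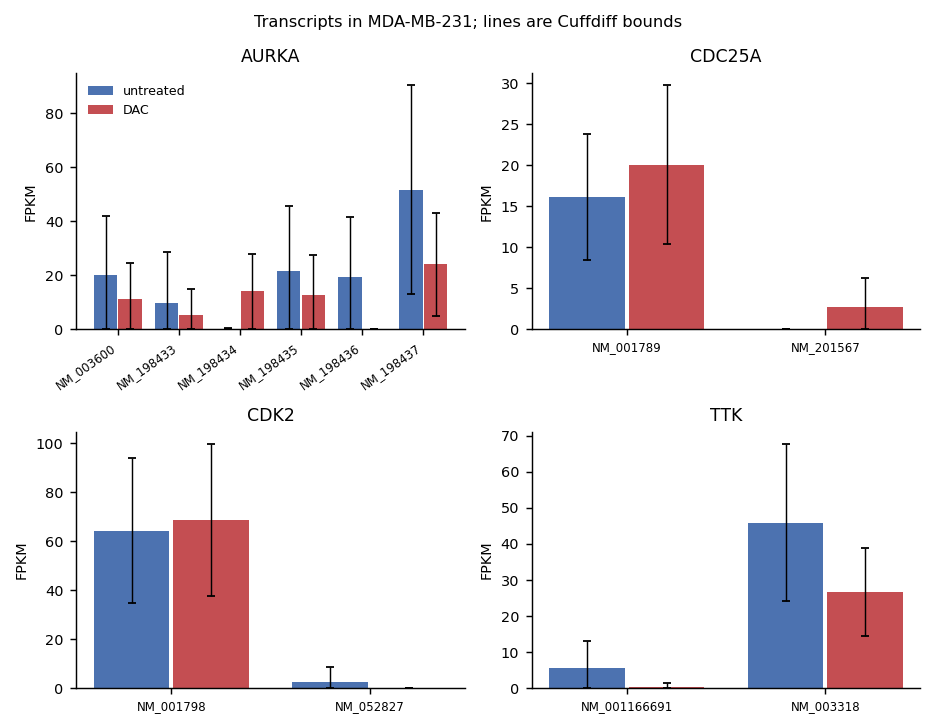
FPKM of each annotated transcript of AURKA, CDC25A, CDK2 and TTK in the untreated (blue) and DAC-treated (red) MDA-MB-231 library, with vertical lines from the lower to the upper Cuffdiff bound. The bounds overlap for every transcript, and the AURKA transcripts NM_198434 and NM_198436 exchange their values.

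Long transcripts were lower after DAC in general. Among symbols with a mean of at least 10 FPKM the median log2 change went from -0.09 for transcripts up to 1000 bases to -0.28 for those over 6000 bases. The cell cycle genes lay below these medians in every class, from -0.35 (over 2000 and up to 3000 bases, 17 genes) to -0.68 (over 6000 bases, 3 genes: CENPE, CENPF and MKI67). The class medians of the symbols with a mean of at least 10 FPKM, turned back into ratios, were then used as divisors for all symbols of a class. After this division 11 of the 46 genes (23.9%) were more than 1.5-fold lower, against 8.82% of all symbols. Of all symbols 42.0% were lower at all after it. The share more than 1.5-fold lower among symbols with a mean of at least 10 FPKM was not counted after it. The same 11 genes were called with 0.912 as the 1 divisor for all symbols, against 10.6% of all symbols: CCND1, CCNA2, CCNB1, CKS2, PLK1, AURKA, BUB1, BUB1B, TTK, CENPE and CDC20. The part of transcript length in the result was not tested further.

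**Figure D4:**
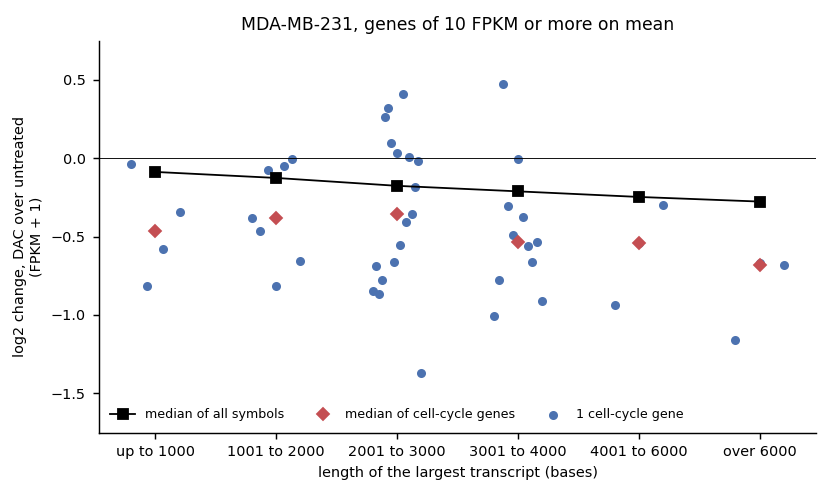
Log2 change after DAC in MDA-MB-231 against the length of the largest transcript, for genes with a mean of at least 10 FPKM. Blue points are the 45 cell cycle genes at this level, red diamonds their medians and black squares the medians of all symbols, which go from -0.09 to -0.28; the red diamonds lie below the black squares in all 6 classes.

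A list of 96 other cell cycle genes was set beside them, of which 93 reached 1 FPKM. Of these 77 were lower, 31 were more than 1.5-fold lower and 3 more than 1.5-fold higher, with a median log2 change of -0.38. Over all symbols 56.9% were lower, 15.5% more than 1.5-fold lower and 17% more than 1.5-fold higher. More than 2-fold lower were 6 of the 93, where 4.82% of all symbols were called so. The 43 other mitotic genes had a median of -0.47, with 41 lower and 18 past 1.5-fold. Those of the 43 past 2-fold were MAD1L1 (20.1 and 7.72 FPKM), PBK (49.99 and 19.8), ANLN (198.3 and 92.96) and SGOL2 (30.8 and 15.3 FPKM). The call on MAD1L1 rests on the sum of its transcripts (ratio 0.384), since its largest transcript had a ratio of 0.638. The 15 APC/C subunits and regulators had a median of -0.38, with 12 lower and 5 past 1.5-fold. The 12 pocket proteins and DREAM/MuvB subunits had 8 lower and 5 past 1.5-fold, the 7 measured other cyclins and CDKs 6 lower and 2 past 1.5-fold, and the 4 other E2F factors 3 lower with none past it. Of 6 CDK1 brakes and checkpoint kinases 4 were lower and none passed 1.5-fold, and of 6 measured CDK inhibitors 3 were lower and 3 higher.

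Among the CDK inhibitors, which brake the cycle, CDKN1A (p21, the CDK inhibitor that p53 and other signals induce; chromosome 6, 36644237 to 36655114, plus strand) went from 11.1 to 37.1 FPKM, a ratio of 3.35. For its largest transcript the bounds did not overlap (4.27 to 17.6 untreated and 18.99 to 52.5 after DAC). It was the only gene of the 93 at 1 FPKM or more that was more than 2-fold higher. Of all symbols 10.8% were more than 2-fold higher, and 2.86% of those with a mean of at least 10 FPKM. CDKN2D (p19) was at 30.2 and 53.2 FPKM, a ratio of 1.76, CDKN2C at 28.8 and 17.3, CDKN1B (p27) at 14.7 and 14.0, and CDKN2A and CDKN2B were listed at 0 in both libraries.

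RB1, the retinoblastoma protein that holds E2F factors in check (chromosome 13, 48877880 to 49173572, plus strand), went from 38.2 FPKM (bounds 20.8 to 55.6) to 13.8 FPKM (bounds 7.08 to 20.6), a ratio of 0.362 with bounds that did not overlap. Over all symbols the bounds did not overlap for 1.44%. They also did not overlap for the largest ANAPC11 transcript (49.3 and 0.00435 FPKM), while the ANAPC11 transcripts summed to 109.5 and 110.3 FPKM. E2F5, a repressive E2F, was at 8.69 and 4.19 FPKM, a ratio of 0.482 for the sum of its transcripts and of 0.762 for the largest. CDK4 (144.3 and 114.9 FPKM), CDK6 (16.3 and 13.1), WEE1, the kinase that holds CDK1 inactive (18.2 and 15.8), and E2F7 (23.5 and 18.7) had ratios from 0.795 to 0.870.

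In HMLER cells 3 of the 46 genes (6.52%) were in the table of transcripts with higher values after DAC: CDC25A, CDK2 and CENPA. Of the symbols at 1 FPKM or more in MDA-MB-231, 10.9% were in it. CDC25A entered with its main transcript NM_001789, at 6.47 FPKM untreated and 14.8 FPKM after DAC, which in MDA-MB-231 was at 16.1 and 20.1 FPKM. CDK2 entered with NM_052827 (2.45 and 5.99 FPKM), a minor transcript in MDA-MB-231 (2.50 FPKM and listed at 0). CENPA entered with NM_001042426 (0.785 and 2.13 FPKM), also minor in MDA-MB-231 (3.75 and 4.89 FPKM, of 40.4 and 40.2 FPKM in all). CDK2 lies on chromosome 12 (56360565 to 56366573, plus strand) and CENPA on chromosome 2 (26987157 to 27023935, plus strand). The levels of the other 43 genes in HMLER, and their direction there, were not analysed here. The tables were made separately, so levels are compared only within a line.

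Of the 96 other cell cycle genes 8 were in the HMLER table, all of them among the 93 that reached 1 FPKM in MDA-MB-231. Over all symbols at this level 10.9% were listed there, so the 8 were no larger a share than among symbols in general. CDKN1A was at 75.9 and 448.7 FPKM for its main transcript NM_000389, and was thus higher after DAC in both lines. The authors describe p53, one of its inducers, as mutated in MDA-MB-231 and blocked in HMLER cells. The part of p53 was not tested here. CDKN2D was at 12.04 and 24.8 FPKM. SFN (14-3-3 sigma, which keeps CDK1 in the cytoplasm) was at 101.3 and 259.0 FPKM. GADD45A, an inducible inhibitor of CDK1, was at 62.6 and 132.3 FPKM for NM_001924. Its other transcript in the table, NM_001199741, was at 0.771 and 11.9 FPKM. E2F7, a repressive E2F, was at 4.06 and 11.8 FPKM. CCNH (the cyclin of the CDK-activating kinase) was at 2.55 and 6.43 FPKM, and RACGAP1, which acts in cytokinesis, at 1.16 and 4.08 FPKM. CCNA1 had 3 transcripts in the table, with 2.50 to 7.53 FPKM after DAC.

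**Figure D5:**
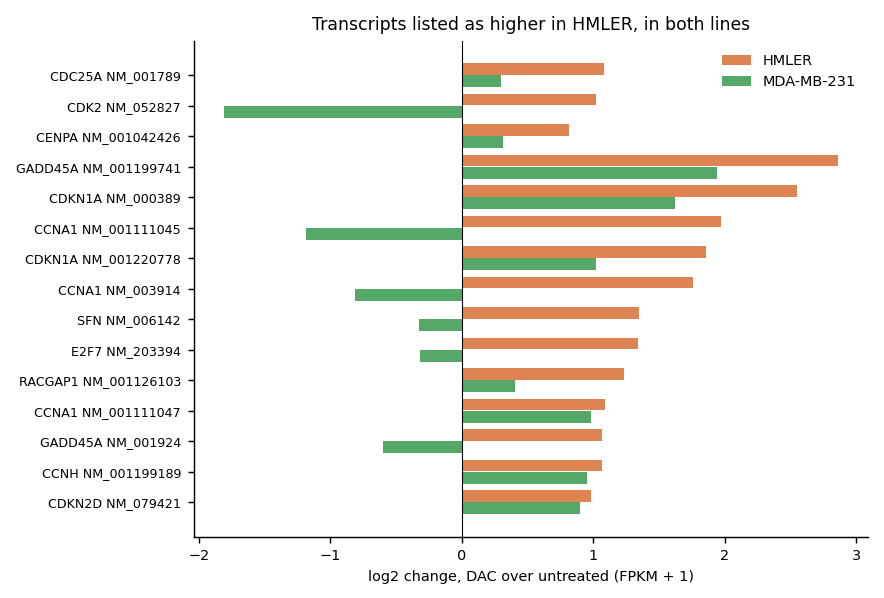
Log2 change after DAC, with 1 FPKM added to each value, of each cell cycle transcript listed in the HMLER table, in HMLER (orange) and in MDA-MB-231 (green). All HMLER bars are above 0 because the table lists only transcripts with higher values after DAC. Of the 15 MDA-MB-231 bars 6 are below 0, among them CDK2 NM_052827 and the CCNA1 transcripts NM_001111045 and NM_003914. The share below 0 in MDA-MB-231 among all listed transcripts was not counted.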

How the data were processed

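RNA-seq libraries of untreated and DAC-treated HMLER (2 and 2) and MDA-MB-231 cells (1 and 1) were analysed, grouped by the titles in the labels. The authors aligned reads to hg19 with TopHat2, and the deposited FPKM values per RefSeq transcript come from Cuffdiff on the Galaxy server. Versions and library scaling are not given in the sources used here. The deposited bounds of each MDA-MB-231 value, a signal in FPKM units, are also Cuffdiff's. The HMLER table also holds the authors' fold changes, test statistics, p-values and q-values, and the MDA-MB-231 table fold changes, which were not used.

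Transcripts were summed per symbol, and symbols with 1 FPKM or more in at least 1 library were kept. Ratios had no pseudocount, and log2 changes a pseudocount of 1 FPKM, which understates the change of low genes. No test was run, since each condition has 1 library or 1 merged value. The members and lists were chosen with earlier results of these data known. All members are given. Those past 2-fold, with bounds that do not overlap, listed in HMLER, or highest or most changed in their role are given with bounds and position, and other cell cycle genes where they passed 2-fold or were listed, with a few fixed by name (CDKN1A, CDKN1B, CDK4, CDK6, RB1, WEE1 and E2F7). Gene positions were read from GENCODE models on GRCh37, which is the assembly of hg19.

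The FPKM step of 1 read was estimated on symbols with 1 transcript at a locus of its own and over 2000 bases long. There 100% of the 767 untreated and 811 DAC low values lay within 0.1 of a whole read, and the step in the DAC library was 1.01 times that in the untreated one. The library kit is not stated to keep strand, so overlapping genes may share reads. RefSeq promoter windows of the first listed start were used. That start may not be the main one in these cells, so motifs near another start would be missed. The counting steps were tested on simulated data. Alternatives were other filters, pseudocounts, thresholds and scalings, the largest transcript in place of the sum, transcripts with status OK, and bounds that do not overlap. A mean of at least 10 FPKM and scaling by length class were added after seeing the data. Scripts ran in Python 3.11.15 with pandas 2.3.3, numpy 2.4.6, matplotlib 3.10.9 and scipy 1.17.1.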

Additional observations from a re-analysis of the deposited data

Results flagged for a closer look

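Of the cell cycle transcripts listed as higher in HMLER, 6 were lower after DAC in MDA-MB-231, and each is noted because its direction differs between the lines. The difference was not tested, as each line has 1 value per condition. The direction in HMLER is fixed by what is listed there. The share of all HMLER-listed transcripts that were lower in MDA-MB-231 was not counted, so the 6 have no baseline. Over all symbols, counted per symbol and not per transcript, 56.9% were lower in MDA-MB-231. The DAC/untreated ratio in MDA-MB-231 was 0.383 for CCNA1 NM_001111045 and 0.527 for CCNA1 NM_003914, the germline A-type cyclin, which in HMLER were at 1.17 and 7.53 FPKM and at 1.49 and 7.42 FPKM. The third listed CCNA1 transcript, NM_001111047, was higher in both lines (0.641 and 2.50 FPKM in HMLER, 0.707 and 2.38 FPKM in MDA-MB-231). The ratio was 0.795 for E2F7 NM_203394 (4.06 and 11.8 FPKM in HMLER), 0.654 for GADD45A NM_001924 and 0.799 for SFN NM_006142. For CDK2 NM_052827 it was 0, since the transcript was listed at 0 FPKM after DAC. In MDA-MB-231 the bounds of all 6 transcripts overlapped between the libraries.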

How the results depend on the processing

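No paired analysis was possible because columns carry no replicate numbers, being merged in HMLER and from 1 library each in MDA-MB-231. No replicate could be left out and no limma fit was run for that reason. The number of the 46 genes more than 2-fold lower (3) was 17 at a threshold of 1.5-fold, 0 where bounds must not overlap and 1 (PLK1) after scaling by length class, and stayed between 2 (division by the median ratio) and 4 (largest transcript, with AURKA at a ratio of 0.464) otherwise. The number higher (0) was 1 (E2F2) at 1.5-fold and 1 after scaling by length class. The median log2 change (-0.48) was -0.35 after division by the median ratio and -0.29 by length class. The FPKM of all MDA-MB-231 transcripts summed to 589238 untreated and to 480455 after DAC. Ratios were not scaled to equal sums, which would raise all of them. Of all symbols, 604 were lower and 1350 higher. These were 1080 and 5193 without a filter, 1944 and 2124 at 1.5-fold, 47 and 131 where bounds must not overlap, and 309 and 199 at a mean of at least 10 FPKM. Scaling by length class gave 398 lower, and 494, 465 and 863 were higher with 1 FPKM in both libraries, 5 FPKM in at least 1, and a pseudocount of 1. The cause was not tested. The number listed in HMLER (3) was 2 with 1 FPKM in both conditions and with 5 FPKM in at least 1. With the largest transcript 36 of the 46 genes were lower, and 32 after either scaling. The genes that changed sign, CCNE1, CDK1, CKS1B, CENPA, NUSAP1 and HMMR, had log2 changes between -0.07 and -0.01.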
